A study of Danio rerio with 32 samples.

Results

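The genes described here encode the proteins of the cytosolic ribosome, the particle that translates messenger RNA in the cytoplasm. They were chosen by symbol: rpl or rps followed by a digit, or rplp0, rplp1, rplp2 or rpsa, in any case, without the S6 kinase genes (rps6k) and rps19bp1. The deposited table lists 31658 genes, of which 82 met this rule, 36 of the small subunit and 46 of the large subunit, and 12 symbols of kinases and of rps19bp1 were left out. RNA of liver and muscle from adult female zebrafish (AB background) was sequenced in 4 groups of 8 libraries. The groups were gys2 knockout liver, wild-type liver, gys2 knockout muscle and wild-type muscle, where gys2 encodes the glycogen synthase of liver. The sources used here give neither the allele nor its lesion, nor which liver and muscle came from 1 fish.

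Each ribosome holds a small subunit, which reads the codons, and a large subunit, which forms the peptide bonds. Each subunit has a fixed set of proteins on a scaffold of ribosomal RNA, and in vertebrates nearly all of their messenger RNAs start with a 5′ terminal oligopyrimidine (TOP) tract, through which mTORC1 signalling sets their translation. Liver is a secretory organ that in egg-laying females makes vitellogenin, the yolk precursor, in bulk, whereas skeletal muscle is rich in contractile and mitochondrial transcripts. Teleost fish carry extra copies of some ribosomal protein genes from gene and genome duplication. Several paralogous pairs, not all of them particular to fish, are described below.

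Library totals were 2562717 to 15351773 counts in knockout liver, 1514099 to 2366219 in wild-type liver, 2373329 to 3620243 in knockout muscle and 1664493 to 7264469 in wild-type muscle, so that every knockout liver was deeper than every wild-type liver. The study's design text describes separate fish for the 8 libraries of a group, so p values cover the spread between fish. Levels are in CPM, the counts scaled to a common library total. Lasy-Seq counts the 3′ end of a transcript, so CPM were not divided by length, and the order of different genes also depends on how each 3′ end is read and mapped. The targeted gene gys2 was at 0.17 to 2.49 CPM in knockout livers, against 3.61 to 19.3 CPM in wild-type livers, with no overlap. Summed hepatocyte markers (11 of 11 in the table) were at 28202 to 113548 CPM in knockout liver and 25594 to 94242 CPM in wild-type liver, against 534 to 3371 CPM in knockout muscle and 522 to 6732 CPM in wild-type muscle. The highest muscle value of each genotype belonged to the library numbered 6, which also had the highest vitellogenin share of its group (2.74% in knockout muscle 6 and 5.27% in wild-type muscle 6). The tissue and interaction medians, and the level, share and spread of rpl22l1 in muscle, are also given without these 2 muscle libraries. Most other muscle values include them.

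Ribosomal protein genes held a similar share of the counts in both genotypes of a tissue and a larger share in liver than in muscle. In knockout liver they made up 14.0% ± 2.12 of all counts (SD, n = 8), with a lowest library of 10.1%, a median of 14.1% and a highest of 16.6%. In wild-type liver they made up 14.6% ± 2.06 (n = 8), with 11.9%, 14.3% and 18.5% as lowest, median and highest. In knockout muscle the share was 4.64% ± 0.491 (4.08% to 5.43%, n = 8), and in wild-type muscle it was 4.17% ± 0.631 (3.37% to 5.33%, n = 8). The genotypes overlapped within each tissue, and no liver came down to the level of any muscle.

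Vitellogenin transcripts took a large and variable share of the liver counts, with 30.3% ± 12.1 in knockout liver and 24.2% ± 7.86 in wild-type liver (SD, n = 8 each). With vitellogenin counts left out of the total, ribosomal protein genes made up 20.8% ± 4.98 in knockout liver and 19.4% ± 3.03 in wild-type liver, which turns the order of the genotypes round. The liver with the lowest vitellogenin share of each genotype, knockout liver 1 at 5.44% and wild-type liver 5 at 11.5%, also had the lowest ribosomal protein share of its genotype, 10.1% in knockout liver 1 and 11.9% in wild-type liver 5. Their hepatocyte marker sums were the highest, 113548 CPM in knockout liver 1 and 94242 CPM in wild-type liver 5. The second-lowest vitellogenin shares, 19.2% in knockout liver 7 and 16.6% in wild-type liver 2, came with the highest ribosomal protein shares, 16.6% in knockout liver 7 and 18.5% in wild-type liver 2. Without the 2 lowest-vitellogenin livers the genotypes differed by −0.35 percentage points, against −0.53 with all livers, knockout minus wild type. In bulk tissue, fewer cells of a type and less RNA per cell cannot be told apart.

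**Figure D1:**
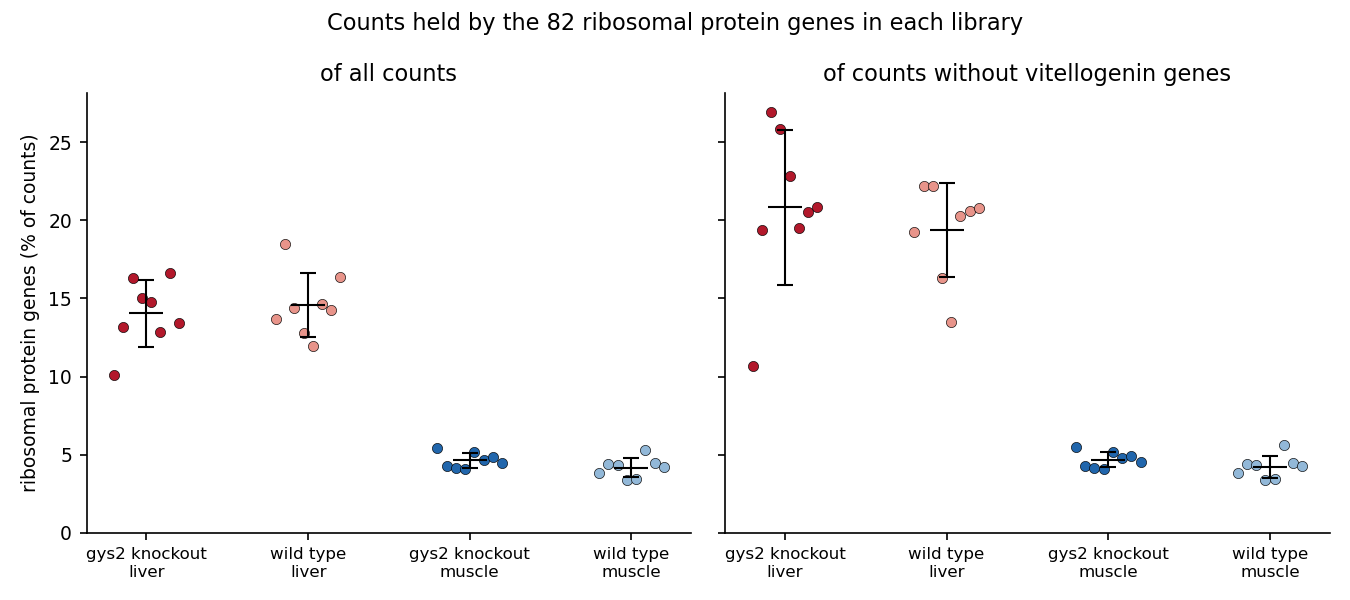
Share of counts held by the 82 ribosomal protein genes, in percent, for each of the 8 libraries of the 4 groups (points), with the mean and SD (bars), of all counts on the left and of counts without vitellogenin genes on the right. Livers lie between 10.1% and 18.5% on the left and the highest muscle lies at 5.43%.

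The 2 subunits kept a similar proportion in the 4 groups, slightly higher for the small subunit in liver than in muscle. Small-subunit genes took 42.7% ± 0.321 of the ribosomal protein counts in knockout liver, 42.9% ± 0.423 in wild-type liver, 42.2% ± 0.434 in knockout muscle and 42.1% ± 0.457 in wild-type muscle (SD, n = 8 each). The whole span of the group means was less than 1 percentage point, and single libraries ran from 41.5% in knockout muscle 4 to 43.5% in wild-type liver 1. The counts were spread over many genes: the 10 highest held 19.7% of ribosomal protein counts in knockout liver, 19.8% in wild-type liver, 20.3% in knockout muscle and 20.3% in wild-type muscle.

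The highest mean levels over 32 libraries belonged to rplp0, rps2, rpl32 and rpl37, and the lowest to rps27.2, rps27l, rpl7l1 and rps8b. rps2, a small-subunit protein near the messenger RNA entry, averaged 3508 ± 634 CPM in knockout liver, 3509 ± 544 CPM in wild-type liver, 1202 ± 173 CPM in knockout muscle and 1047 ± 219 CPM in wild-type muscle. rplp0, the base of the stalk that recruits elongation factors, averaged 3352 ± 509 CPM in knockout liver, 3263 ± 478 in wild-type liver, 1471 ± 151 in knockout muscle and 1317 ± 179 in wild-type muscle. The 2 genes led each of the 4 groups, rps2 in both livers and rplp0 in both muscles, by differences smaller than their SD in liver. At the other end, rpl7l1 averaged 40.2 ± 17.6 CPM in knockout liver, 47.7 ± 11.98 in wild-type liver, 13.1 ± 3.74 in knockout muscle and 14.5 ± 3.19 in wild-type muscle. rps8b, a copy of rps8a, was near the detection limit: its median was 0.869 CPM in knockout liver, 1.66 in wild-type liver, 4.55 in knockout muscle and 4.81 in wild-type muscle. It had no count in 1 knockout and 1 wild-type liver, which allows up to 0.517 CPM in that knockout liver and 1.95 CPM in that wild-type liver (3 counts of the total, counting error only).

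**Figure D2:**
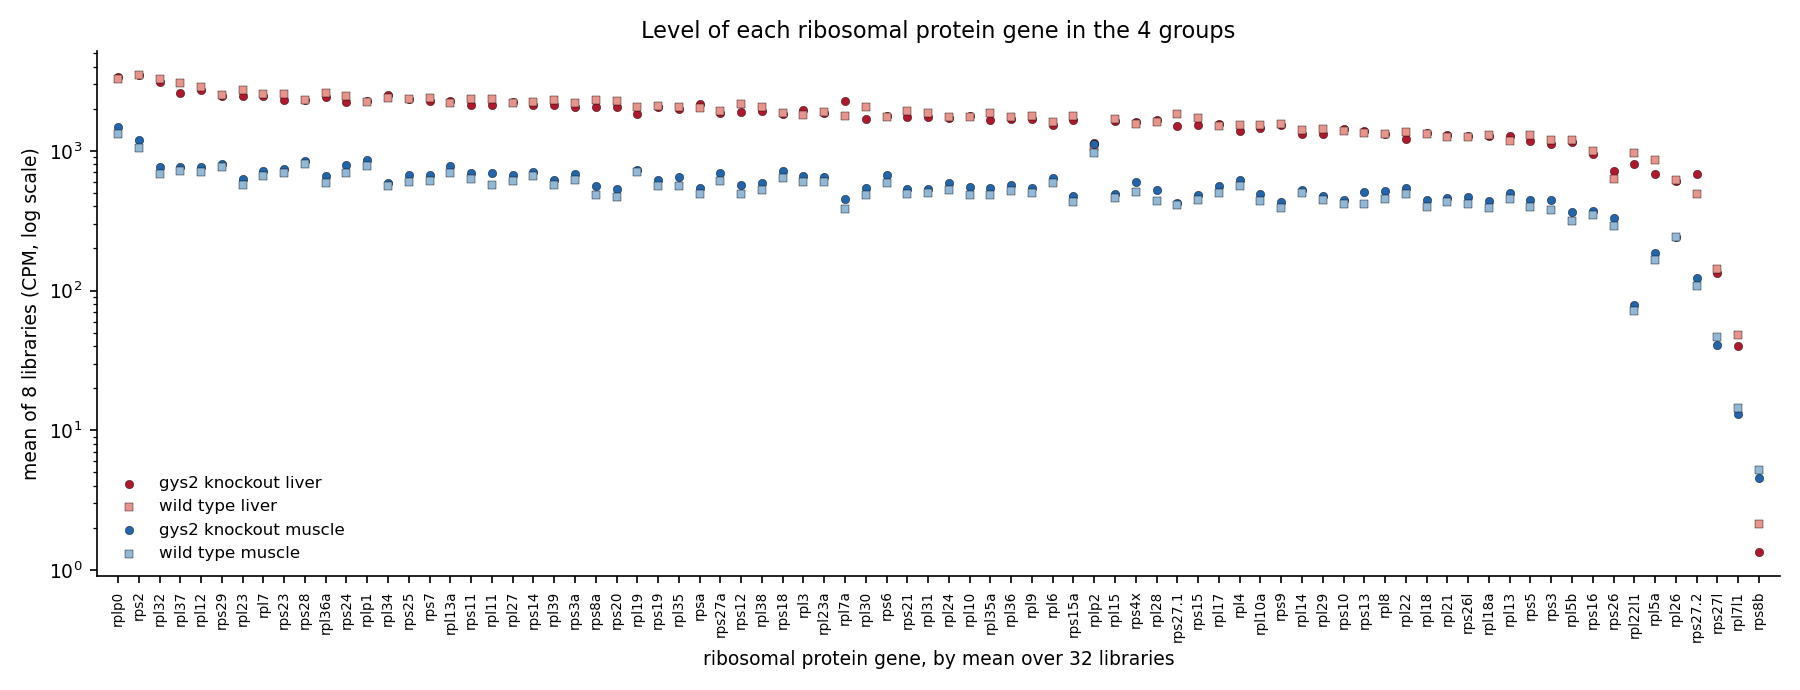
Mean level over 8 libraries of each of 80 ribosomal protein genes in the 4 groups, in CPM on a log scale, ordered by the mean over 32 libraries. Liver points lie above muscle points along the row except at rplp2 and rps8b, and the genotypes of a tissue nearly coincide.

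Within a group the genes moved together from fish to fish. For the 79 genes that averaged at least 100 CPM over the 32 libraries, taken as log2 of the level over the median ribosomal protein gene of the same library, the median SD among 8 fish was 0.10 in knockout liver, 0.11 in wild-type liver, 0.10 in knockout muscle and 0.12 in wild-type muscle. The median SD of the log2 level itself was 0.25 in knockout liver, 0.22 in wild-type liver, 0.18 in knockout muscle and 0.24 in wild-type muscle, so most of the spread between fish was shared. As a description, the median correlation between pairs of these genes over the 8 libraries of a group was 0.85 in knockout liver, 0.79 in wild-type liver, 0.71 in knockout muscle and 0.81 in wild-type muscle. All genes of a library share its depth and composition, which differed between libraries. The least uniform gene was rpl22l1 in knockout liver (SD of the relative level 0.36), knockout muscle (0.54) and wild-type muscle (0.69), and rps27.2 in wild-type liver (0.34). Without the libraries numbered 6 the SD of rpl22l1 was 0.31 in knockout muscle and 0.22 in wild-type muscle.

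In knockout against wild-type liver no ribosomal protein gene passed an adjusted p under 0.05, and the group lay above the median gene. With edgeR's quasi-likelihood test and TMM scaling (factors that align the bulk of genes between libraries), 0 of 81 tested genes were called, against 0.0742% of all 9438 genes tested; rps8b did not pass the filter on low counts. All 81 had a positive log2 change, with a median of 0.46 and a range of 0.18 to 0.98, against a median of −0.02 over all genes. At an unadjusted p under 0.05 there were 53 of 81, against 22.4% of all genes. Since these genes moved together from fish to fish, the 53 are not separate results. DESeq2 called 6 of 81, against 3.6% of all genes, and limma-voom with quality weights called the same 6, against 2.28% of all genes: rps27.2, rpl7a, rps26, rpl3, rps13 and rps10, all higher in knockout liver.

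The sign of these changes rested on the scaling. With library totals in place of TMM, 20 of 81 genes were positive with a median of −0.07, while the median of all genes was −0.54, so that the group again lay 0.47 above it. With cyclic loess, which aligns libraries at each level of expression, 25 of 81 were positive, the median was −0.06, and the group lay at −0.08 relative to the median of all genes. In CPM of library totals, 0 of 81 had groups that did not overlap, against 1.92% of all genes. Thinning each liver library to the total of the shallowest left the TMM median at 0.48, with 0 of these genes called, against 0.0422% of all genes. Summed skeletal-muscle markers (12 of 12 in the table, none at 0 throughout) did not overlap between genotypes in CPM of library totals. They were at 1689 to 2278 CPM in knockout livers and 2547 to 3825 CPM in wild-type livers. Summed markers of ovary and oocyte (8 of 8 in the table, 1033 to 1381 CPM in knockout livers and 1384 to 1864 CPM in wild-type livers), of neutrophils (4 of 4, 7.18 to 13.2 CPM in knockout livers and 14.6 to 52.1 CPM in wild-type livers) and of proliferation (8 of 8, 70.4 to 130 CPM in knockout livers and 139 to 942 CPM in wild-type livers) also did not overlap. On this scale the median of all genes was itself −0.54. Under TMM edgeR called 0 genes of these lists, against 0.0742% of all genes. Their median log2 changes were −0.05 for skeletal muscle, 0.07 for ovary and oocyte, −0.98 for neutrophils (1 gene tested) and −0.27 for proliferation. The other marker lists had positive medians under TMM. These were 0.47 for hepatocytes (11 of 11 genes positive), 0.84 for exocrine pancreas (12 of 12) and 0.75 for erythrocytes (5 of 5). They were 0.54 for macrophages (5 of 5), 0.40 for bile duct (4 of 4) and 0.25 for intestine (1 of 2). A positive TMM change was therefore not particular to the ribosomal protein genes. With vitellogenin genes removed before the TMM fit, 81 of 81 ribosomal protein genes were positive, with a median of 0.46. In that fit 0 of them were called, against 7 of all 9314 genes. Beyond the thinning and this removal, the part of library depth and of vitellogenin in the result was not tested. The part of these cells was not tested.

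**Figure D3:**
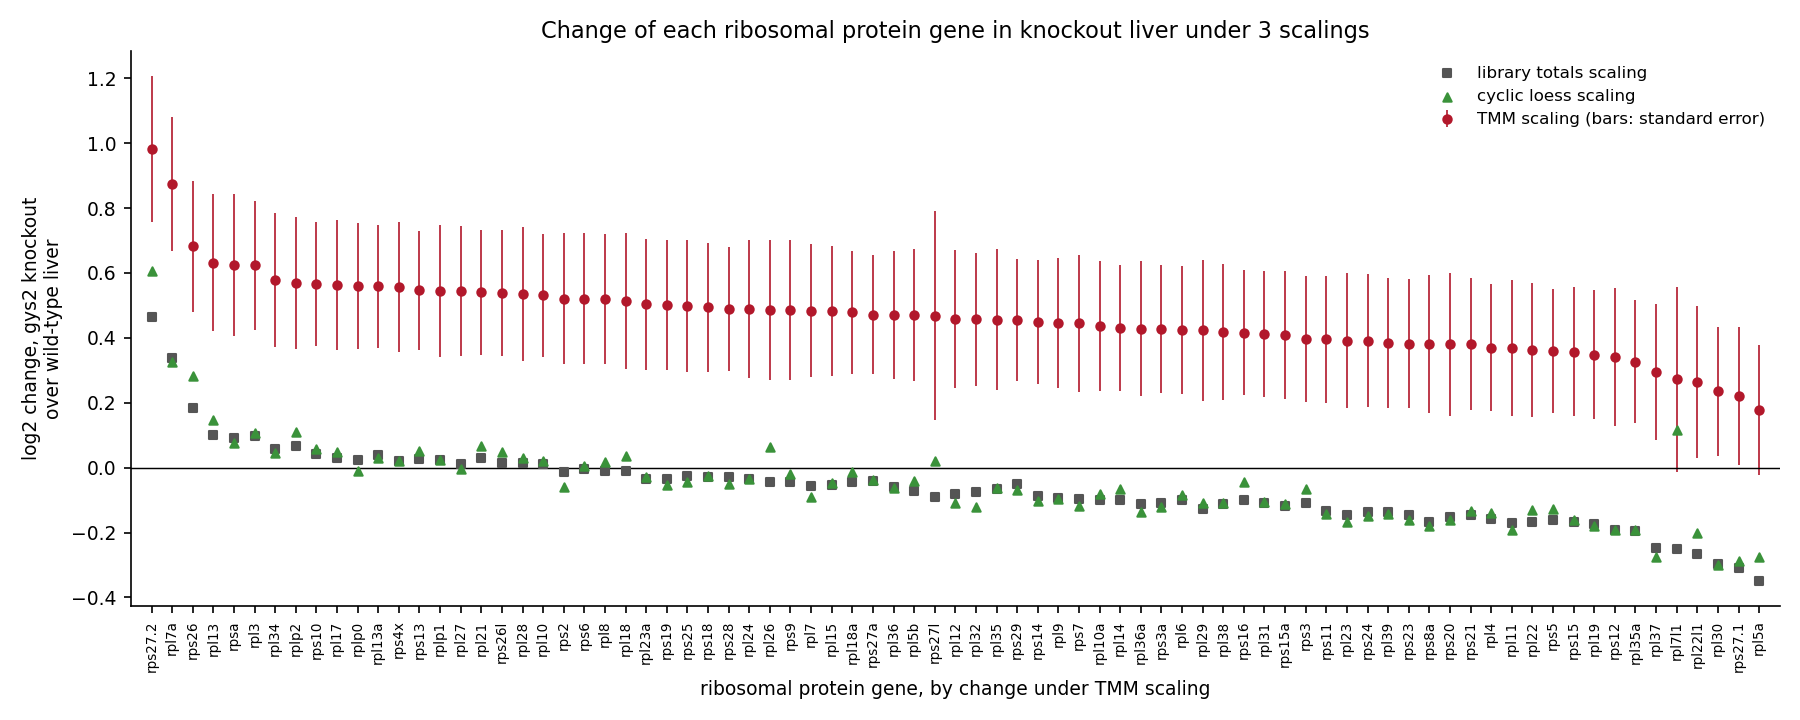
Log2 change of 79 ribosomal protein genes in gys2 knockout over wild-type liver, under TMM scaling (with standard errors), library totals and cyclic loess, ordered by the TMM change. The order of genes is alike under the 3 scalings, with rps27.2, rpl7a and rps26 on top, while the median over the 81 tested genes is 0.46 under TMM, −0.07 under library totals and −0.06 under cyclic loess.

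The 5 genes with the smallest p in this comparison were rps27.2, rpl7a, rps26, rpl3 and rpl13 by edgeR, which called none of them, while DESeq2 and limma-voom called the first 4. rps27.2, a copy of the zinc-binding small-subunit protein Rps27, had 579, 633 and 916 CPM as lowest, median and highest in knockout liver, against 271, 522 and 687 CPM in wild-type liver. Each of the 8 knockout values exceeded the wild-type median, and 3 exceeded the highest wild-type liver. The log2 change was 0.98 ± 0.22 (SE, edgeR adjusted p = 0.0815). rpl7a, a large-subunit protein, had 1473, 2398 and 2657 CPM in knockout liver and 1522, 1743 and 2310 CPM in wild-type liver, so that 5 of 8 knockout livers lay above the highest wild-type liver. Its log2 change was 0.87 ± 0.21 (edgeR adjusted p = 0.0857). These 2 genes were the only ones of the 81 under an edgeR adjusted p of 0.10, a share near the 2.29% of all genes. They stayed positive with library totals and cyclic loess.

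rps26, which lies where messenger RNA leaves the small subunit and is mutated in human Diamond-Blackfan anaemia, had 626, 717 and 880 CPM in knockout liver and 420, 613 and 792 CPM in wild-type liver; its log2 change was 0.68 ± 0.20 (edgeR adjusted p = 0.102). rpl3, a protein beside the peptidyl transferase centre, averaged 1962 ± 270 CPM in knockout liver and 1815 ± 284 CPM in wild-type liver, with a log2 change of 0.62 ± 0.20 (edgeR adjusted p = 0.122). rpl13 averaged 1277 ± 227 CPM in knockout liver and 1179 ± 259 CPM in wild-type liver, with 0.63 ± 0.21 (edgeR adjusted p = 0.131). For all 3 the groups overlapped, and the difference of the means was smaller than the larger SD of the pair. The lowest changes were those of rpl5a (0.18), rps27.1 (0.22), rpl30 (0.23) and rpl22l1 (0.26).

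Leaving out 1 liver at a time called 0 to 2 of these genes. Without wild-type liver 2, which had the highest ribosomal protein share of its group, rps27.2 (1.10, edgeR adjusted p = 0.0397) and rpl7a (1.00, edgeR adjusted p = 0.0397) were called, against 0.334% of all genes. Without knockout liver 1, rps27.2 (1.10, edgeR adjusted p = 0.0436) and rpl7a (1.02, edgeR adjusted p = 0.0348) were called, against 0.114% of all genes. Without wild-type liver 5 rps27.2 alone was called (0.95, edgeR adjusted p = 0.048), against 0.688% of all genes.

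Relative to the ribosomal protein genes of the same library, the composition differed little between the genotypes in liver. Of the 79 genes compared, 73 had a mean relative level within 0.2 log2 units of wild type. The 6 outside were rps27.2 (0.60), rpl7a (0.41) and rps26 (0.28) on the higher side and rpl5a (−0.26), rpl30 (−0.22) and rps27.1 (−0.22) on the lower side. In the fit with the ribosomal protein total as library size, 0 of 81 were called, against 17.1% of all genes. This scale centres the ribosomal protein genes near 0 by construction (median −0.0075), while the median of all genes was −0.45. The 17.1% is therefore not a like background for them. Of the 81, 1 had an unadjusted p under 0.05, against 3253 of all 9438 genes, which is not a like background either. This 1 gene was rps27.2, with a log2 change of 0.56 ± 0.24 (edgeR adjusted p = 0.0995).

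Several ribosomal protein genes are known from stress signalling or disease. rpl5a, rpl5b and rpl11 encode the partners of 5S ribosomal RNA that in mammals bind Mdm2 and thereby stabilise p53. rpl11 averaged 2111 ± 424 CPM in knockout liver and 2355 ± 374 CPM in wild-type liver, and the median change of the 3 genes was 0.37 under TMM. rps6, the substrate of S6 kinase, averaged 1768 ± 251 CPM in knockout liver and 1755 ± 265 CPM in wild-type liver. rps19, the gene most often mutated in Diamond-Blackfan anaemia, averaged 2051 ± 384 CPM in knockout liver and 2081 ± 242 CPM in wild-type liver. rps27a, made as a fusion with ubiquitin, averaged 1879 ± 221 CPM in knockout liver and 1916 ± 251 CPM in wild-type liver, and rpsa, also known as the laminin receptor, averaged 2179 ± 487 CPM in knockout liver and 2026 ± 364 CPM in wild-type liver. For rpl11, rps6, rps19, rps27a and rpsa the difference was smaller than the SD of either group. Of 21 genes whose human counterparts are mutated in Diamond-Blackfan anaemia, edgeR called 0, against 0.0742% of all genes, with a median of 0.46. Of these 21, DESeq2 and limma-voom called rps27.2, rps26 and rps10, among their 6 calls over the 81 ribosomal protein genes. The shares called over all genes were 3.6% with DESeq2 and 2.28% with limma-voom. Of 5 stalk genes, rplp2l included, edgeR called 0, against 0.0742% of all genes, with a median of 0.56.

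In knockout against wild-type muscle no ribosomal protein gene passed the test. edgeR called 0 of 82, against 0% of all 12415 genes tested, and 0 of 82 had an unadjusted p under 0.05, against 4.74% of all genes. DESeq2 called 0, against 0.00805% of all genes, and limma-voom called 0, against 0%. The median log2 change was 0.06, from −0.32 to 0.21, with 68 positive and 14 negative, against 0.00 over all genes. Groups of 0 genes failed to overlap in CPM, against 0.0161% of all genes. Within the ribosomal protein total edgeR again called 0 of 82, against 0% of all genes, and all 79 genes compared had relative levels within 0.2 log2 units of wild type.

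The smallest p values in muscle belonged to rps27l, rpl11, rps13, rpl28 and rps8b, none of them called. rps27l, the Rps27-like paralogue that in mammals responds to p53, averaged 40.9 ± 8.65 CPM in knockout muscle and 46.6 ± 12.5 CPM in wild-type muscle (log2 change −0.32 ± 0.19, edgeR adjusted p = 0.951). rpl11 averaged 696 ± 91.9 CPM in knockout muscle and 566 ± 79.2 CPM in wild-type muscle (0.21 ± 0.18, edgeR adjusted p = 0.966). The ranges of both genes overlapped between the genotypes. rps13 averaged 506 ± 65.3 CPM in knockout muscle and 420 ± 72.3 CPM in wild-type muscle (0.18 ± 0.18), and rpl28 averaged 521 ± 82.5 CPM in knockout muscle and 434 ± 82.1 CPM in wild-type muscle (0.18 ± 0.19).

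An interaction term over all 32 libraries tested whether liver and muscle differed in their response to genotype. edgeR called 0 of 82 genes, against 0.211% of all 13725 genes tested, and 45 of 82 had an unadjusted p under 0.05, against 18.3% of all genes. DESeq2 called 0, against 1.1% of all genes, and limma-voom called 11, against 3.77%. All 82 estimates were positive, with a median of 0.56 against 0.11 over all genes, and under library totals 3 of 82 were positive with a median of −0.20, against −0.70 over all genes. The count at an unadjusted p under 0.05 was 4 with library totals, 3 with cyclic loess and 35 with the replicate block. The shares over all genes were not taken for these settings. rpl7a (0.87 ± 0.27, edgeR adjusted p = 0.12) and rps27.2 (1.00 ± 0.33, edgeR adjusted p = 0.128) had the smallest p, followed by rps10 (0.73), rpl3 (0.76) and rpsa (0.75), the last 3 of which changed sign under library totals. Without both muscle libraries numbered 6 the median was 0.47, and 11 of 82 had an unadjusted p under 0.05 (16.6% of all genes), compared with 45 of 82 with them. Within the ribosomal protein total, 0 of 82 were called, against 0% of all genes.

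Liver held more ribosomal protein transcripts than muscle in both genotypes. In knockout fish 81 of 81 tested genes were higher in liver, against 21.2% of all 11685 genes tested, and 0 were lower, against 22.2%, and the median log2 change was 2.48 against −0.15 over all genes. In wild-type fish 80 of 81 were higher, against 15% of all 10648 genes tested, and 0 were lower, against 18.9%, and the median was 1.99 against 0.01 over all genes. All 8 livers lay above all 8 muscles in CPM for 79 of 81 genes in knockout fish, against 5.8% of all genes, and for 80 of 81 in wild-type fish, against 6.41%. rplp2 overlapped in both genotypes and rpl7l1 in knockout fish. rps8b, which did not pass the filter on low counts here, averaged lower in liver than in muscle. It was at 1.34 CPM in knockout liver against 4.56 in knockout muscle, and 2.13 CPM in wild-type liver against 5.17 in wild-type muscle. Without both muscle libraries numbered 6 the medians were 2.57 in knockout and 2.00 in wild-type fish, with 81 of 81 genes called higher in knockout fish, against 22.3% of all genes, and 80 of 81 in wild-type fish, against 15.1%. With cyclic loess the medians were 0.99 in knockout and 1.07 in wild-type fish, and with library totals they were 1.61 in knockout and 1.81 in wild-type fish. Under these 2 scalings the sign changed for rplp2 alone. Each library entered these tests as an independent sample.

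Several genes show the size of this difference. In knockout fish the 8 with the smallest p were rpl22l1 (4.29), rpl7a (3.22), rpl34 (2.95), rpsa (2.91), rpl32 (2.90), rpl23 (2.87), rps10 (2.58) and rpl10 (2.57), with edgeR adjusted p up to 2.2e-11. rpl7a had 1473, 2398 and 2657 CPM as lowest, median and highest in knockout liver, against 380, 453 and 500 CPM in knockout muscle. In wild-type fish the 8 were rpl5a, rps8a, rpl23, rpl37, rpl32, rpl36a, rpl7a and rps20, with log2 changes of 2.29 to 2.55. rpl32, a large-subunit protein, had 2526, 3220 and 4121 CPM in wild-type liver, against 469, 676 and 1021 CPM in wild-type muscle, a log2 change of 2.45 ± 0.20 (edgeR adjusted p = 3.6e-11). rps8a had 1743, 2243 and 3272 CPM in wild-type liver and 385, 465 and 684 CPM in wild-type muscle, a log2 change of 2.43 ± 0.19 (edgeR adjusted p = 1.96e-11). The livers lay far above the muscles in each case, with no overlap.

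rplp2 was the exception among the 81 genes tested. This acidic stalk protein works as a dimer with Rplp1 on the base Rplp0. rplp2 averaged 1130 ± 216 CPM in knockout liver, 1068 ± 201 in wild-type liver, 1121 ± 187 in knockout muscle and 957 ± 90.4 in wild-type muscle (SD, n = 8 each), so that livers and muscles overlapped. Its log2 change of liver over muscle was 0.85 ± 0.20 in knockout fish (edgeR adjusted p = 0.000969) and 0.34 ± 0.19 in wild-type fish (edgeR adjusted p = 0.181), the lowest of the group in each genotype. With library totals it was −0.0027 in knockout fish and 0.16 in wild-type fish, and with cyclic loess −0.66 in knockout fish and −0.64 in wild-type fish. By mean level it ranked 70 of 82 in knockout liver, 72 in wild-type liver and 3 in both muscles. Its partner rplp1 averaged 2290 ± 415 CPM in knockout liver, 2234 ± 508 in wild-type liver, 861 ± 159 in knockout muscle and 774 ± 118 in wild-type muscle, and so followed the rest of the group.

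Within the ribosomal protein total, liver and muscle shared most of their composition. In knockout fish 74 of 79 genes, and in wild-type fish 73 of 79, had relative levels within 0.5 log2 units between the tissues. Fitted with the ribosomal protein total as library size, 6 of 81 were higher in knockout liver than in knockout muscle, against 4.44% of all genes, and 6 were lower, against 89.6%. In wild-type fish 11 were higher in liver, against 4.23%, and 9 lower, against 90.7%. Since nearly all genes passed on this scale, the adjustment left these p values close to unadjusted ones.

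On this scale rpl22l1 was highest in liver in both genotypes, with a log2 change of 1.78 ± 0.26 in knockout fish (edgeR adjusted p = 7.33e-08) and 2.03 ± 0.26 in wild-type fish (edgeR adjusted p = 1.14e-08). rplp2 was lowest, at −1.58 ± 0.19 in knockout fish (edgeR adjusted p = 9.62e-10) and −1.67 ± 0.17 in wild-type fish (edgeR adjusted p = 2.73e-11). Also lower in liver in both genotypes were rps26, rplp0, rpl22 and rpl4, between −0.36 and −0.69. Higher in both were rpl32 (0.41 in knockout and 0.48 in wild-type fish) and rpl7a (0.73 in knockout and 0.43 in wild-type fish). rps27.2 (0.87), rpl34 (0.48) and rpsa (0.40) passed the threshold in knockout fish and not in wild-type fish, and edgeR called the difference between the genotypes for none of them on this scale. Under TMM, limma-voom called the interaction of all 3. The within-total interaction of rps27.2 was 0.51 ± 0.30 (edgeR adjusted p = 0.29).

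**Figure D4:**
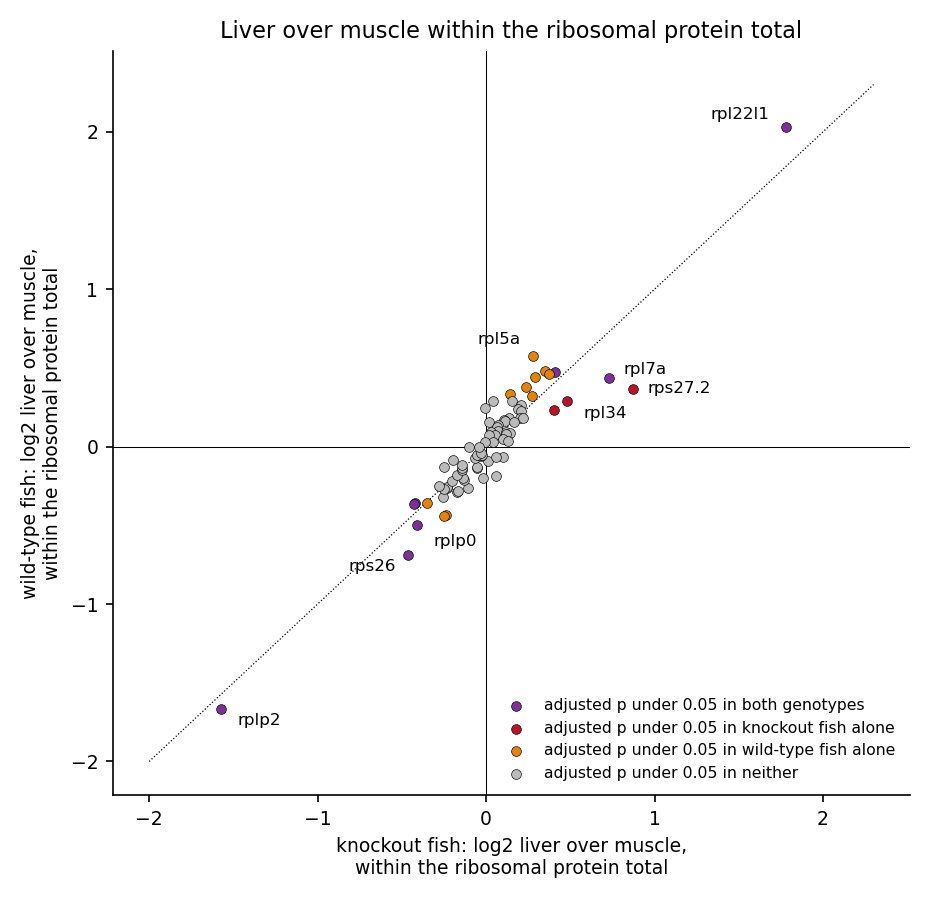
Log2 change of liver over muscle within the ribosomal protein total for 79 genes, in knockout fish (x axis) and wild-type fish (y axis), coloured by the adjusted p in each genotype, with a dotted line at equal changes. Most genes lie near 0 in both, rpl22l1 lies at 1.78 in knockout and 2.03 in wild-type fish, and rplp2 at −1.58 in knockout and −1.67 in wild-type fish.

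Paralogous symbols were compared as the share of 1 copy in the counts of its pair, which does not depend on the scaling of libraries. Reads of near-identical copies can be split between them, so a share is of assigned counts. There were 9 pairs and 36 comparisons, each tested with a two-sided exact permutation test of 8 against 8 libraries (smallest possible p 0.0001554), with Benjamini-Hochberg adjustment over the 36.

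The Rps27 pair differed between the genotypes in liver. rps27.2 took 31.3% ± 3.34 of the counts of rps27.2 and rps27.1 in knockout liver (25.4%, 30.8% and 35.8% as lowest, median and highest) and 20.7% ± 3.12 in wild-type liver (16.97%, 20.2% and 26.7%). Each of the 8 knockout values exceeded the wild-type median, with an overlap of the ranges; the exact permutation p was 0.0003108 (adjusted 0.001119). In muscle the share was 22.4% ± 4.89 in knockout fish and 20.98% ± 4.01 in wild-type fish (exact permutation p = 0.544). The share was higher in liver than in muscle in knockout fish (adjusted exact p = 0.00254), and in wild-type fish the adjusted exact p was 0.91. The difference between the effect in liver and that in muscle was 9.28 percentage points, with a permutation p of 0.0144 that did not pass adjustment over 9 pairs (0.13). Behind the liver share, rps27.1 averaged 1505 ± 249 CPM in knockout liver and 1849 ± 385 CPM in wild-type liver, while rps27.2 averaged 681 ± 110 CPM in knockout liver and 489 ± 146 CPM in wild-type liver. These are CPM of library totals, and under TMM scaling both copies had a positive log2 change, so the direction of rps27.1 rested on the scaling.

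The Rpl5 pair also differed. rpl5a took 37.2% ± 2.93 of the pair in knockout liver (32.1% to 40.7%) and 41.6% ± 1.60 in wild-type liver (38.8% to 43.3%), with all 8 knockout livers below the wild-type median (exact permutation p = 0.001554, adjusted 0.004303). In muscle the share was 34.0% ± 1.54 in knockout fish and 34.5% ± 2.18 in wild-type fish (exact permutation p = 0.593). The effect differed between the tissues by −3.89 percentage points (permutation p = 0.0332, adjusted 0.149 over 9 pairs). The rpl5a share was higher in liver than in muscle in both genotypes, with an adjusted exact p of 0.0407 in knockout fish and 0.0006216 in wild-type fish. With 1 library left out, the adjusted exact p in knockout fish was 0.00602 to 0.0748, and it missed 0.05 in 12 of 16 cases, all but those without knockout liver 3 or 4 or knockout muscle 2 or 6. The other 7 pairs did not pass adjustment between genotypes in either tissue.

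Between tissues the copies differed more. rpl22l1 took 39.6% ± 5.61 of its pair with rpl22 in knockout liver against 12.5% ± 4.94 in knockout muscle, and 41.2% ± 5.52 in wild-type liver against 11.7% ± 7.53 in wild-type muscle, with no overlap in either genotype (exact permutation p = 0.0001554 each, adjusted 0.0006216). Without the libraries numbered 6, at 23.5% in knockout and 30.1% in wild-type muscle, the muscle shares were 11.0% ± 2.39 in knockout and 9.04% ± 1.32 in wild-type fish (n = 7 each). In level, rpl22l1 was at 808 ± 207 CPM in knockout liver, 963 ± 257 in wild-type liver, 78.4 ± 36.7 in knockout muscle and 71.4 ± 66.2 in wild-type muscle. Without the libraries numbered 6 its muscle levels were 66.5 ± 15.6 CPM in knockout and 48.1 ± 7.24 CPM in wild-type fish, against 162 CPM in knockout muscle 6 and 234 CPM in wild-type muscle 6. The hepatocyte markers were also highest in these 2 libraries, and their part was not tested.

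rps26l took 63.8% ± 2.72 of its pair with rps26 in knockout liver against 58.2% ± 3.02 in knockout muscle (adjusted exact p = 0.0044), and 66.7% ± 3.87 in wild-type liver against 58.7% ± 2.59 in wild-type muscle (adjusted exact p = 0.0037), with overlap. rps8b took 0.0724% of its pair with rps8a in knockout liver against 0.842% in knockout muscle, and 0.103% in wild-type liver against 1.03% in wild-type muscle (exact permutation p = 0.0001554 each). rps27l, set against rps27.1, took 8.01% ± 3.77 in knockout liver against 8.89% ± 1.99 in knockout muscle (adjusted exact p = 0.758), and 7.26% ± 2.39 in wild-type liver against 10.4% ± 2.45 in wild-type muscle (adjusted exact p = 0.0413). The wild-type p was 0.0164 to 0.0864 with 1 library left out and missed 0.05 in 10 of 16 exact tests, all but those without wild-type liver 1, 5, 7 or 8 or wild-type muscle 1 or 6. rpl7l1 in its pair with rpl7 passed the threshold in no comparison.

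The symbol rplp2l, a copy of rplp2 outside the naming rule, was higher in liver. It was at 1283 ± 192 CPM in knockout liver, 1217 ± 196 in wild-type liver, 230 ± 72.4 in knockout muscle and 213 ± 66.2 in wild-type muscle. It took 53.3% ± 3.37 of the pair in knockout liver against 16.96% ± 3.88 in knockout muscle, and 53.4% ± 3.45 in wild-type liver against 18.1% ± 4.56 in wild-type muscle, with no overlap (exact permutation p = 0.0001554 each, adjusted 0.0006216). Since rplp2l was added after its values were seen, these p values are not independent support.

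**Figure D5:**
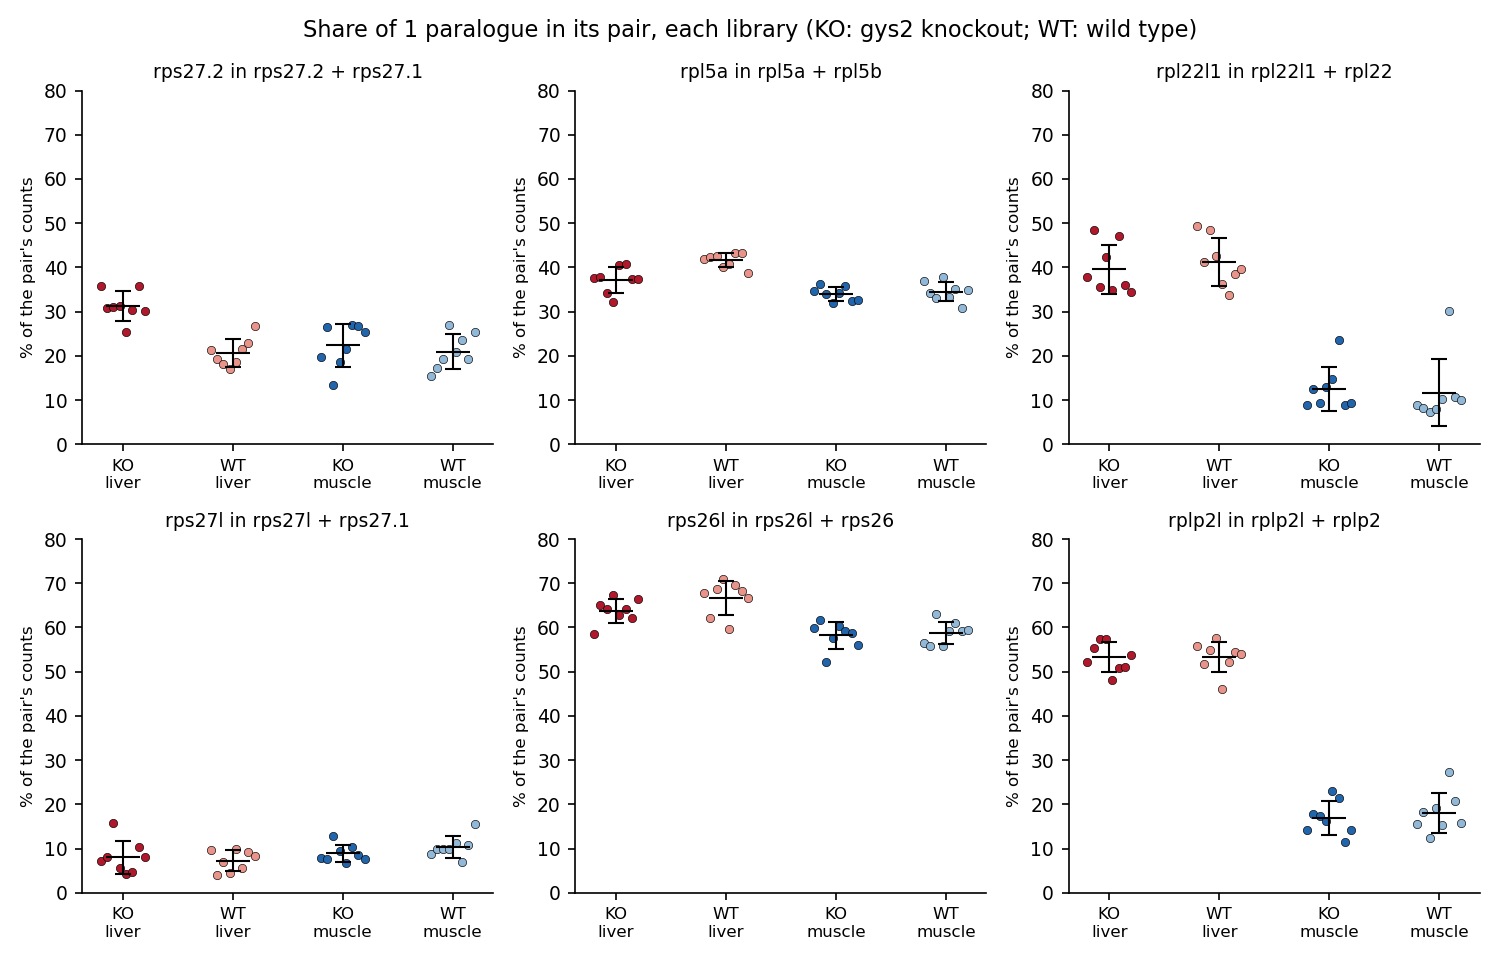
Share of 1 paralogue in the counts of its pair, in percent, for each of the 8 libraries of the 4 groups (points), with the mean and SD (bars), for 6 pairs. The rps27.2 share is at 31.3% in knockout liver and 20.7% in wild-type liver, and the rpl22l1 and rplp2l shares separate liver from muscle.

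Other ribosomal protein genes lie outside the naming rule. The fusion gene faua (a ubiquitin-like protein with Rps30) and the small-subunit scaffold rack1 had levels like those of the group, while faub, a second copy of faua, averaged 33.3 ± 16.6 CPM in knockout liver and 36.5 ± 9.62 CPM in wild-type liver. faua averaged 1353 ± 247 CPM in knockout liver and 1499 ± 206 CPM in wild-type liver, and rack1 averaged 1797 ± 272 CPM in knockout liver and 1826 ± 268 CPM in wild-type liver. Neither was called between genotypes in liver, and in wild-type fish faua (2.32) and rack1 (1.99) were higher in liver than in muscle, while faub (0.52, edgeR adjusted p = 0.0705) was not called. Over the 32 libraries centred on their group means, both genes were among those that followed the median ribosomal protein gene most closely of 3787 genes with at least 20 CPM, with r of 0.90 for faua and 0.87 for rack1. rfc1, a subunit of the clamp loader of DNA replication (0.87), and atp6v0e1, a subunit of the vacuolar proton pump (0.86), came next. The ribosomal protein genes themselves had a median r of 0.88 with that median. These are descriptions, since all genes of a library share its depth and composition, which differed between libraries.

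The machinery around the ribosome was read from lists of translation, biogenesis and signalling genes. In knockout against wild-type liver, edgeR called 0 genes in each of 9 lists, against 0.0742% of all genes. The lists were fitted under TMM alone. Their median log2 changes were 0.37 for 5 ribosomal proteins outside the naming rule, 0.46 for 10 elongation factors and 0.46 for 35 initiation factors. They were 0.42 for 54 ribosome biogenesis genes, 0.49 for 9 other TOP messenger RNAs and 0.49 for 15 nascent chain factors. RNA polymerase I and III (0.14, 18 genes), mTORC1 and TOP regulators (0.11, 19 genes) and ribosomal stress and p53 genes (0.03, 8 genes) lay nearer to the −0.02 of all genes. In the same fit the medians of the cell type marker lists ran from −0.98 for neutrophils (1 gene tested) to 0.84 for exocrine pancreas. Whether the sign of the list medians rested on the scaling, as for the ribosomal protein genes, was not tested. Between the tissues most of the 9 lists had more genes higher in liver. The shares over all genes were 21.2% higher and 22.2% lower in knockout fish, and 15% higher and 18.9% lower in wild-type fish. Of biogenesis genes, 49 of 54 were higher and 0 lower in knockout fish, and 33 of 51 were higher and 0 lower in wild-type fish. npm1a (nucleophosmin) was among them, with 3.05 in knockout and 2.56 in wild-type fish. Of 10 elongation factors 8 were higher and 1 lower in each genotype. The lower one was eef2l2 (−4.30 in knockout and −4.23 in wild-type fish), while eef2b, encoding the translocase eEF2, was higher (4.29 in knockout and 3.43 in wild-type fish). Of 36 initiation factors, 24 were higher and 1 lower in knockout fish, and 17 were higher and 4 lower in wild-type fish. Of nascent chain factors, 13 of 17 were higher and 1 lower in knockout fish, and 9 of 16 were higher and 0 lower in wild-type fish. sec61a1, of the channel of the endoplasmic reticulum, was higher in both (3.79 in knockout and 2.75 in wild-type fish). The mTORC1 and TOP regulators had no common direction, with 6 of 21 higher and 5 lower in knockout fish, and 3 of 19 higher and 7 lower in wild-type fish. Nor had the other TOP messenger RNAs, with 5 of 10 higher and 3 lower in knockout fish, and 5 of 10 higher and 5 lower in wild-type fish. Of ribosomal stress and p53 genes, 3 of 10 were higher and 2 lower in knockout fish, and 2 of 10 higher and 3 lower in wild-type fish.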

How the data were processed

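The 32 libraries were 3′ mRNA libraries of the Lasy-Seq method, reverse transcribed with indexed primers and then pooled, per the labels' protocols. The deposited table holds whole-number counts per gene symbol, not normalized, with 1430 of 31658 genes at 0 throughout. Build GRCz11 and the tools Salmon 1.10.2, BWA 0.7.17-r1188 and fastp 0.23.4 appear, without their roles, per the submitters' processing notes. The assignment of reads from near-identical copies is not stated.

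CPM were computed from library totals. Groups were taken from the titles. Each comparison was fitted over the whole table with edgeR 4.0.16 in R 4.3.3 (TMM scaling, filterByExpr with a minimum count of 10 and total of 15, robust quasi-likelihood F test, Benjamini-Hochberg adjustment over all genes tested, threshold 0.05), and liver and muscle were fitted apart except for the interaction, which used all 32. Fits with the ribosomal protein total as library size give changes relative to the other ribosomal protein genes. Alternatives were DESeq2 1.42.0, limma 3.58.1 (voom with quality weights, and cyclic loess), library totals, DESeq2 size factors, other filters, vitellogenin genes removed, thinned counts, a replicate block and single libraries left out. The code was tested on simulated data.

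Genes are named by rule: for each comparison the 8 called genes with the smallest p in each direction, or the 5 smallest where fewer than 5 were called; the 4 highest and 4 lowest levels; paralogous symbols; rps6, rps19, rps27a, rpsa, rpl11, the Rpl5 copies and the stalk; and up to 4 genes of each list. Results for a few named genes are not reported here. rplp2l, faua and faub were added after their values were seen. The members and lists were chosen with earlier results of these data known. The settings without muscle libraries 6 or low-vitellogenin livers, the adjusted p of 0.10 and the log2 ratio of pairs were chosen after seeing the data. The counts carry no molecular identifiers, so limits from counts cover counting error only.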

Additional observations from a re-analysis of the deposited data

Results flagged for a closer look

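Single libraries stood apart in 15 of 160 values tested over groups of 8, where chance gives about 1 in 20 for independent values. In each, the gap between the extreme library and its nearest neighbour, as a part of the range of the group, was above the critical value of Dixon's test. Of these, 8 belonged to the muscle libraries numbered 6. The values tested are not independent, since these genes moved together within a group, so 1 library can be flagged for several of them.

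The rpl22l1 share of its pair with rpl22 was 23.5% in knockout muscle 6 (next 14.8%) and 30.1% in wild-type muscle 6 (next 10.7%). The rpl22l1 level was 162 CPM in knockout muscle 6 (next 98.3 CPM) and 234 CPM in wild-type muscle 6 (next 58.5 CPM). In wild-type muscle 6 rpl32 was at 1021 CPM (next 720 CPM), rpl37 at 1046 CPM (next 709 CPM), rpsa at 667 CPM (next 518 CPM) and rps8a at 684 CPM (next 523 CPM). Summed hepatocyte markers were also highest in these libraries, at 3371 CPM in knockout muscle 6 and 6732 CPM in wild-type muscle 6, and their part was not tested.

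Knockout liver 7 was highest for rps27.2 (916 CPM, next 736 CPM), rps26 (880 CPM, next 740 CPM) and rps27a (2331 CPM, next 1955 CPM). Knockout liver 1 had the highest share of rps8b in its pair with rps8a (0.241%, next 0.101%). Wild-type liver 2 was highest for rpl37 (4295 CPM, next 3127 CPM), rpl7a (2310 CPM, next 1884 CPM) and rps8a (3272 CPM, next 2462 CPM).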

How the results depend on the processing

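In liver, the median log2 change of knockout over wild type (0.46) was −0.071 with library totals, −0.061 with cyclic loess and −0.0075 within the ribosomal protein total, and 0.38 to 0.60 with 1 library left out. The count of ribosomal protein genes called there (0, against 0.0742% of all genes) was 6 with DESeq2 (3.6%) and 6 with limma-voom (2.28%). It was 2 without a filter (99 of all 29097 genes) and 2 with at least 50 counts in 8 libraries (48 of all 3589). At an adjusted p under 0.10 it was 2 (2.29% of all genes). With 1 library left out it was 0 to 2, with 0.114% to 0.688% of all genes called in the fits that called any. In muscle, the median (0.06) was −0.015 with limma-voom, −0.00075 within the ribosomal protein total and −0.016 to 0.12 with 1 library left out, being −0.014 without knockout muscle 1 and −0.016 without knockout muscle 7. The count stayed at 0 to 0. For the interaction, limma-voom called 11 (3.77% of all genes). The median (0.56) was −0.20 with library totals, −0.069 with cyclic loess and 0.0067 within the ribosomal protein total. With library totals rps10 was −0.046, rpl3 −0.028 and rpsa −0.031.

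For liver over muscle in knockout fish, the median (2.48) was 1.61 with library totals, 0.99 with cyclic loess and 0.019 within the ribosomal protein total. Within that total 12 genes were called, against 10983 of all 11685. With 1 library left out the median was 2.38 to 2.67, with 81 to 81 called, against 4475 to 5285 of all genes. In wild-type fish the median (1.99) was 1.07 with cyclic loess and −0.00074 within the ribosomal protein total. Within that total 20 genes were called, against 10103 of all 10648. With 1 library left out the median was 1.91 to 2.09, with 80 to 81 called, against 3455 to 3741 of all genes.

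In percentage points, the share of knockout minus wild-type liver (−0.53) was 1.43 without vitellogenin and 1.67 without vitellogenin and mitochondrial genes. Liver minus muscle was 16.2 and 16.7 in knockout fish (9.41 of all counts) and 15.2 and 15.4 in wild-type fish (10.4). Leaving out 1 library ended 2 paralogue calls between tissues, rpl5a in knockout fish (12 of 16 cases) and rps27l in wild-type fish (10 of 16). No paralogue call was lost with log2 ratios or without both muscle libraries numbered 6.

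Over all genes, calls in liver (7) were 340 with DESeq2, 215 with limma-voom, 3249 with library totals, 1611 within the ribosomal protein total, 99 without a filter, 48 with at least 50 counts and 3 after thinning. Interaction calls (29) were 151 with DESeq2, 517 with limma-voom, 3372 with library totals, 9 with cyclic loess, 2 after thinning, 107 without a filter, 0 within the ribosomal protein total and 7 without both muscle libraries numbered 6. Muscle calls (0) were 1 with DESeq2, 2 with the block and 3 without a filter. Liver over muscle gave 9021 with library totals, 3051 with at least 50 counts and 10983 within the ribosomal protein total in knockout fish (5070), and 1875 with at least 50 counts and 10103 within the ribosomal protein total in wild-type fish (3607). The cause of these shifts was not tested.

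Same-numbered livers and muscles showed little likeness: over 8 pairs, the correlation was over 0.1 in 1 for knockout and 0 for wild-type fish. Different tissues of 1 fish need not correlate, so this cannot show whether the numbers stand for the same fish. Between genotypes the correlation was over 0.1 in 3 for the livers (median 0.02, other pairs −0.01). For the muscles it was over 0.1 in 5 (median 0.13, other pairs −0.0023), and the source of this likeness was not tested. With the replicate block the medians were 0.44 in liver, 0.04 in muscle, 0.56 for the interaction, 2.45 for liver over muscle in knockout fish and 1.96 in wild-type fish, and it changed no call of these genes. Depth limits rps8b, which had no count in 2 livers.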
